A study of Drosophila melanogaster with 4 samples.

Results

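Fruitless (Fru) is a transcription factor of the fruit fly, with a BTB domain through which such proteins bind each other and zinc fingers that contact DNA. The fruitless gene is best known for its male-specific products, which shape the nerve circuit for courtship, and it also makes products that both sexes share. In a chromatin immunoprecipitation followed by sequencing (ChIP-seq), a peak is a stretch of the genome where the DNA recovered with the antibody exceeds its background, and a run of close peaks marks a place where such stretches follow each other with short breaks. Regulatory DNA of flies commonly holds many binding sites close together, so that the arrangement of neighbouring peaks is part of the description of a factor's binding.

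The regions described here are narrow Fru peaks in chains of 4 or more peaks on the major chromosome arms X, 2L, 2R, 3L, 3R and 4. Neighbouring peaks were joined when the gap between them was under 1000 bp. The members were then chosen by width and chain size, as the peaks under 1000 bp wide in chains of at least 4 peaks of any width. This gave 620 members in 153 chains, of 5538 peaks in the whole list and 5339 on the 6 arms. The chains held 713 peaks in all, since 93 of their peaks were 1000 bp wide or more; these broad peaks counted towards the chain but were not members. Members were 11.6% of the peaks on the arms and 12.8% of the 4827 narrow peaks there (95% Wilson interval 11.9% to 13.8%).

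The study comprised 2 ChIP libraries, made with a rabbit polyclonal antibody against a stretch of the Fru protein, and 2 libraries of input DNA, which is chromatin DNA that was not immunoprecipitated. All 4 came from whole Drosophila melanogaster embryos of the strain labelled Y cn bw sp, of unknown sex, with no mutant of fru and no treatment. Their genotype carried the visible markers y[1], cn[1], bw[1] and sp[1] of body colour, eye colour and the speck at the wing base, the alleles lab[R4.2], CG33964[R4.2] and oc[R3.2], and the alleles Rh6[1], GstD5[1], MstProx[1], LysC[1], Gr22d[1] and Gr22b[1]. The stage label reads 0-8, while the protocol names an egg laying of 8-16 hours; the labels do not settle which applies. Whole embryos mix all cell types, so a peak cannot be placed in a tissue.

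The authors deposited a single peak list in FlyBase Release 5 coordinates, with a first base, a last base and a score for each peak and no value for a library. The read depth behind a peak and its spread between the libraries are therefore unknown, and the scale of the score is not stated. The joining rule used the positions and widths of this same list, so all values below are descriptions without a test. Intervals on shares and medians cover counting error alone and treat neighbouring peaks as independent, which makes them too narrow. Genes are not named, because the gene table used here has coordinates of another release.

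Most chains were short runs of small peaks. Chains of 4 peaks numbered 92, and there were 36 chains of 5, 14 of 6, 8 of 7 and 2 of 8 peaks. The longest by peak number held 9. From its first to its last base a chain had a median length of 3495 bp (quartiles 2853 and 4949 bp, n = 153), and peaks covered a median of 67.4% of that length (quartiles 57.6% and 75.7%). The shortest chain measured 1330 bp and lay on 3R from 4872337 to 4873666, with 4 members that scored between 9.65 and 13.75. The longest measured 13725 bp and lay on 3L from 6174029 to 6187753, where a broad peak of 9269 bp and score 509.52 took up most of the length. Its 3 members scored 19.39, 14.19 and 15.51 and lay in a row to the right of that peak.

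**Figure D1:**
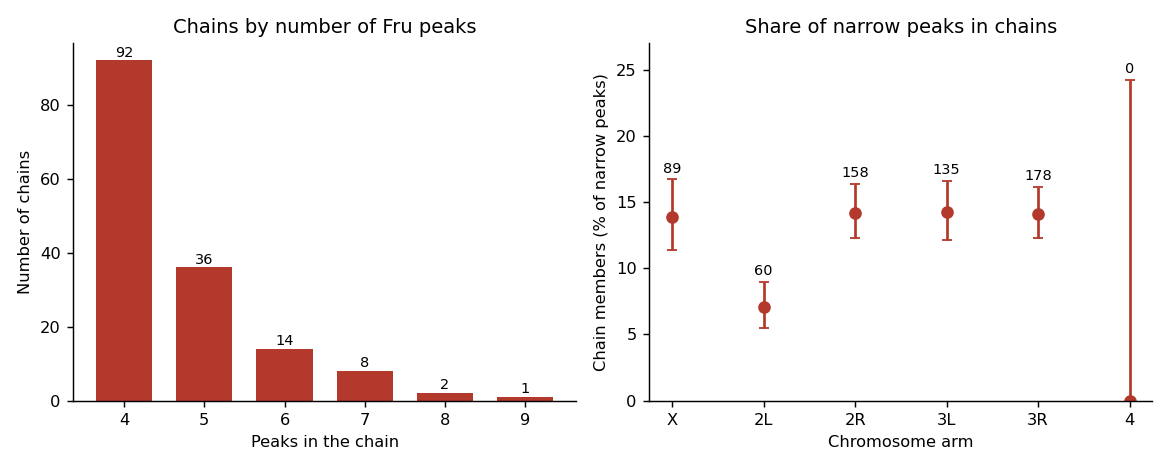
Left, number of chains (vertical axis) by the number of peaks they hold (horizontal axis). Right, chain members as a percentage of the narrow peaks of each arm, with 95% Wilson intervals and the number of members above each; 2L, at 7.06%, lies below the other large arms, which sit between 13.8% and 14.2%, and chromosome 4 has 0 members.

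The large arms differed in how many of their narrow peaks fell in chains, and 2L had the lowest share among them. On 2L 60 of 850 narrow peaks were members, 7.06% (95% Wilson interval 5.52% to 8.98%). On X the count was 89 of 643, 13.8% (11.4% to 16.7%). Arm 2R had 158 of 1113, 14.2% (12.3% to 16.4%), 3L had 135 of 948, 14.2% (12.2% to 16.6%), and 3R had 178 of 1261, 14.1% (12.3% to 16.1%). The interval of 2L did not overlap those of the other large arms, whose shares were nearly equal. Members enter by whole chains, however, and those of 2L came from only 15 chains, so these intervals over single peaks are too narrow. The contrast of 2L with the other arms was chosen after seeing the data and was not tested. Over X, 2R, 3L and 3R together 14.1% of narrow peaks were members (560 of 3965), so that the share on 2L was 0.50 of theirs. This ratio was 0.735 with a joining gap of 2000 bp and 0.798 with chains of at least 3 peaks, and so was below 1 in each case. The 12 narrow peaks of the small chromosome 4 included 0 members, and with so few peaks the interval reached 24.2%. Counted per length between the first and last peak of an arm, 2L had 0.662 chains per Mb, X 0.912, 3L 1.36, 3R 1.62 and 2R 2.10. In this order X and 2L were the poorest, although X matched 2R, 3L and 3R in the share of its narrow peaks that were members. Peaks of any width numbered 706 over 20.8 Mb on X, 945 over 22.7 Mb on 2L and 1040 over 24.3 Mb on 3L. There were 1424 over 27.8 Mb on 3R and 1212 over 19.6 Mb on 2R. Peaks per length were thus lowest on X and highest on 2R, and chain density beyond that of peaks was not tested.

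Member scores also differed between the arms. The median was 10.57 on X (quartiles 9.02 and 12.57, n = 89) and 12.91 on 3L (10.69 and 15.9, n = 135). Between them lay 2R with 11.5 (9.93 and 13.9), 3R with 11.89 (10.1 and 16.0) and 2L with 12.06 (9.92 and 14.2). On 3L members were 1.13 above the isolated narrow peaks of the same arm, whose median was 11.78. An isolated narrow peak is a peak under 1000 bp with no other peak closer than 1000 bp. On the other large arms the same difference was between -0.32 on X and 0.18 on 2L. Isolated narrow peaks were also lowest on X among the large arms, with a median of 10.89, against 11.78 on 3L to 12.02 on 3R. The low scores on X were thus not particular to members. A broad peak was present in 6 of 19 chains on X and 11 of 33 on 3L, in 7 of 15 on 2L, 20 of 41 on 2R, and 23 of 45 on 3R.

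In score and width the members were close to the isolated narrow peaks. Their median score was 11.9 (quartiles 9.94 and 14.7, n = 620), against 11.7 for the 2234 isolated narrow peaks (9.53 and 14.8), a difference of 0.17. Narrow peaks in chains of 2 or 3 had a median of 11.84 (9.67 and 15.07, n = 1973). The 95% binomial interval of the members' median ran from 11.55 to 12.2 and held the medians of both other sets. That interval treats the members as independent, although they enter by whole chains, and leaves out the spread of the other medians. Members were slightly wider, with a median of 358.5 bp (quartiles 265 and 560 bp) against 340 bp for isolated narrow peaks (250 and 519 bp). A score over 20 was reached by 50 members, 8.06% (95% Wilson interval 6.17% to 10.5%), and by 216 isolated narrow peaks, 9.67% (8.51% to 11.0%). Over a score of 50 there were 4 members, 0.645% (0.251% to 1.65%), and 18 isolated narrow peaks, 0.806% (0.510% to 1.27%). The intervals overlapped at both marks.

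Score grows with width in this list: Spearman's rho over peaks was 0.63 for members (n = 620) and 0.63 for isolated narrow peaks (n = 2234), where the peaks share their libraries and depth. From 200 to under 300 bp, the median score was 10.11 for 216 members and 9.63 for 884 isolated narrow peaks. From 400 to under 500 bp it was 11.96 for 73 members and 13.24 for 287 isolated narrow peaks, the widest difference of the 6 classes at -1.28. From 800 to under 1000 bp it was 18.11 for 57 members and 18.63 for 141 isolated narrow peaks. Members lay above the isolated narrow peaks in 2 of the classes and below in 4, so no single direction ran through the widths.

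**Figure D2:**
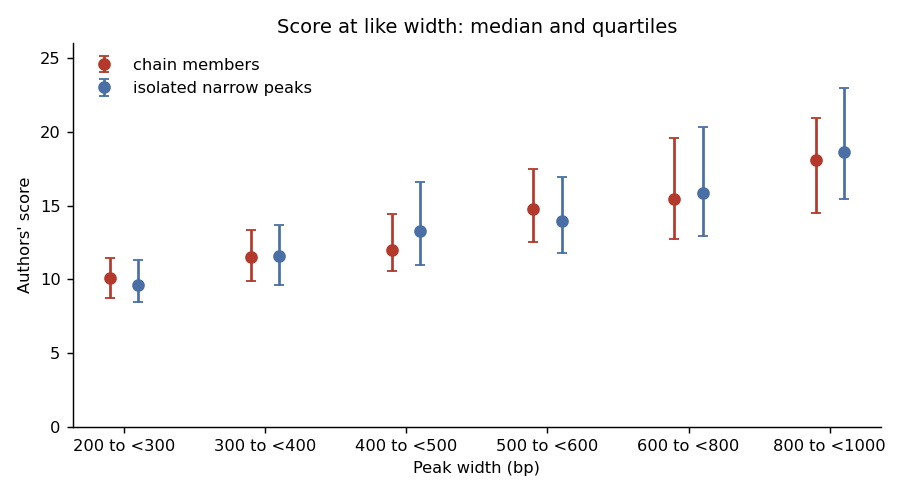
Median authors' score (vertical axis, points) with quartiles (bars) by class of peak width in bp (horizontal axis), for chain members and for isolated narrow peaks. Both sets climb with width, to 18.11 for members and 18.63 for isolated narrow peaks in the widest class.

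Within chains the breaks between peaks were under 1000 bp by the joining rule. Of these gaps 68.8% were under 500 bp, the same share as in chains of 2 or 3 peaks (68.8%). The 560 gaps had a median of 251.5 bp (quartiles 104 and 568 bp), and the shortest, 44 bp, occurred 4 times. On the arms as a whole no gap was below 44 bp either, and no peak was narrower than 201 bp, a width that 20 members had. Of the gaps in chains 133 were under 100 bp, 23.8% (95% Wilson interval 20.4% to 27.4%), and 243 were under 200 bp, 43.4% (39.3% to 47.5%). The 1208 gaps in chains of 2 or 3 peaks had a median of 257 bp, with 23.3% under 100 bp (21.0% to 25.8%) and 41.4% under 200 bp (38.6% to 44.2%). The medians and shares of both sets were nearly equal. Gap length and the lower score of the 2 members beside it were nearly unrelated (Spearman's rho -0.05 over 431 pairs of neighbouring members, which share libraries and depth).

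**Figure D3:**
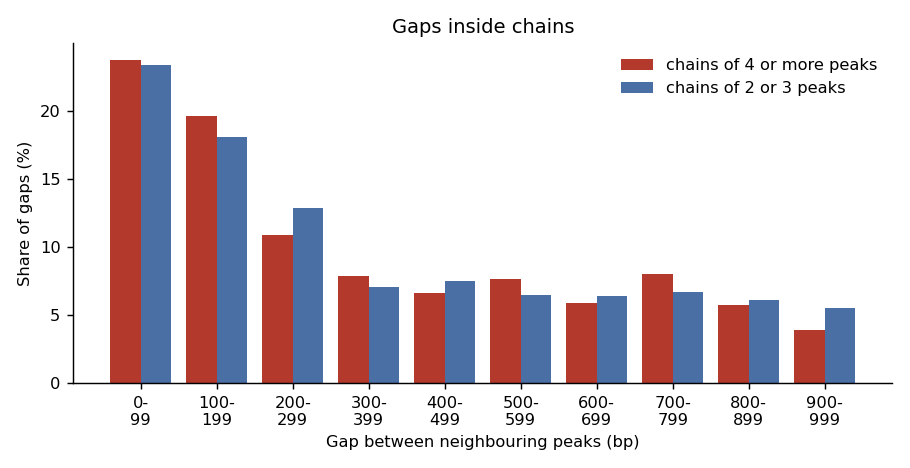
Share of gaps in percent (vertical axis) by gap length in bp (horizontal axis), for the 560 gaps inside chains of 4 or more peaks and the 1208 gaps inside chains of 2 or 3 peaks. The class under 100 bp is the fullest in both sets, at 23.8% and 23.3%.

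Scores along a chain were lower directly beside the highest peak and level from there on. The highest peaks of the 153 chains had a median score of 20.2 (quartiles 16.5 and 32.3) and a median width of 857 bp. The 231 peaks directly beside them had a median of 11.55 (9.82 and 14.3), those 2 places away 11.45 (9.82 and 13.5, n = 173), and those 3 places away 11.55 (9.75 and 14.5, n = 109). That the top peak lies above the rest follows from its being picked as the highest. The level run of the other places is not a separate result. Scores little related between neighbours would also be level once the highest is set aside. Scores of neighbouring members were only loosely alike, with a Spearman's rho of 0.15 over 431 pairs and a median difference in size of 3.39. The median score of a chain was nearly unrelated to its number of peaks, with a rho of -0.01 over 153 chains.

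**Figure D4:**
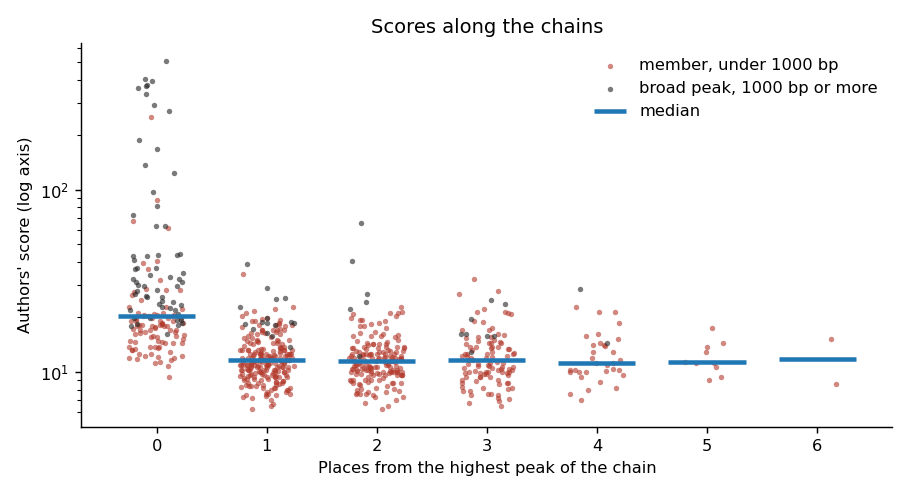
Authors' score on a log axis (vertical) for all 713 peaks of the chains by the number of places from the highest peak of their chain (horizontal), with members and broad peaks in separate colours and the median of each place as a line. The medians lie between 11.2 and 11.8 from the first place onwards, against 20.2 for the highest peaks.

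The highest peak stood at either end of its chain in 75 of 153 chains, 49.0% (95% Wilson interval 41.2% to 56.9%). Ends make up 44.5% of the places on average over these chains, a value inside that interval. In the 92 chains of 4 peaks, the top peak was an end peak in 54, 58.7% (48.5% to 68.2%), where 2 of 4 places are ends. In the 36 chains of 5, it was one in 16, 44.4% (29.5% to 60.4%), where 2 of 5 places are ends. In longer chains it was an end peak in 3 of 14 chains of 6, 21.4% (7.57% to 47.6%), in 2 of 8 chains of 7, 25% (7.15% to 59.1%), in 0 of 2 chains of 8 and in the chain of 9 not either. The share was thus above that of end places in chains of 4 and 5 and below it in the longer ones, with every interval from 4 to 7 peaks holding the share of end places. End members had a median score of 11.89 (quartiles 9.94 and 14.9, n = 263) and inner members 11.7 (9.94 and 14.5, n = 357). The medians and lower quartiles of members at the edge and inside the chain nearly coincided.

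A broad peak was present in 67 of the 153 chains, with 1 such peak in 45, 2 in 18 and 3 in 4. Broad peaks were 93 of the 713 peaks in chains and 512 of the 5339 peaks on the arms. A chain of 4 or more peaks has several places for one, and whether 67 chains is more than this background gives was not tested. In 61 of the 67 a broad peak was the highest of the chain. Chains with a broad peak were longer, with a median of 4949 bp against 2949 bp for the 86 chains without one. Their highest peak had a median score of 31.0, against 17.3 in chains without. The split itself favours these values. A broad peak adds its own width to the chain, a median of 1237 bp. Larger chains also held one more often, with 29 of 92 chains of 4 peaks and 21 of 36 chains of 5. Score grows with width, and broad peaks of the chains had a median score of 25.97, against 11.9 for all members. Whether any difference in length or highest score remains beyond this was not tested. The members themselves differed much less. The 241 members in chains with a broad peak had a median score of 12.2 (quartiles 10.03 and 15.8) and a median width of 407 bp. The 379 members in chains without had a median score of 11.62 (9.86 and 14.3) and a median width of 339 bp. The 110 members directly beside a broad peak had a median score of 11.9 (10.3 and 17.1), and the 131 further along the same chains 12.28 (9.97 and 14.7). Beside a broad peak the median score was a little lower and the upper quartile higher than further along, and the median width was 439 bp against 374 bp.

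A very high peak, with a score over 100, was found in 14 chains. These were 5 of 45 chains on 3R, 4 of 41 on 2R, 2 of 15 on 2L, 2 of 33 on 3L and 1 of 19 on X. In 13 of the 14 it was a broad peak. The other 55 members of these chains scored between 7.03 and 34.58, with a median of 12.57 (quartiles 10.0 and 16.2), and 7 of them exceeded 20. The 564 members of the remaining 139 chains had a median of 11.7 (9.94 and 14.6). The median width was 465 bp in the chains with a very high peak and 350.5 bp in the others. Of the broad peaks in chains 13 of 93 scored over 100, 14.0% (95% Wilson interval 8.35% to 22.5%), against 41 of 419 broad peaks elsewhere on the arms, 9.79% (7.30% to 13.0%), and these intervals overlapped.

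The chain with the most peaks lay on 2L from 10731784 to 10739747, with 7 members and 2 broad peaks over 7964 bp. In order along the arm its peaks scored 12.48, 15.82, 15.36, 31.04, 9.02, 8.72, 15.82, 12.91 and 12.91. The highest was the fourth, a broad peak of 1717 bp, and members lay on both sides of it with scores from 8.72 to 15.82. The second chain, on 2R from 2514810 to 2525170, held 8 peaks with scores of 10.96, 13.2, 370.79, 16.2, 18.21, 9.97, 13.97 and 17.3. Here a broad peak of 3655 bp stood far above the 7 members, of which none reached 20. The third, on X from 1368510 to 1374353, also held 8 peaks, with scores of 10.25, 13.62, 12.57, 13.62, 19.77, 18.14, 6.76 and 9.02. It had no such summit: its single broad peak, of 1205 bp, scored 19.77, less than the median of the highest peaks of all chains.

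Chains of 7 peaks numbered 8, and they also came with and without a very high peak. In the 2R chain from 9074049 to 9083518 a broad peak scored 394.60 and no member exceeded 22.73, and in the 3R chain from 23103822 to 23111418 a broad peak scored 269.57 and no member exceeded 19.82. The 3L chain from 13494531 to 13501284 reached 24.05, and the 3R chain from 25627608 to 25633962 reached 21.80. The remaining 4 had no broad peak at all. That on 3R from 7041405 to 7047124 scored at most 17.96, and those on X from 19542042 to 19547063 and from 10360172 to 10365133 scored at most 12.57 and 18.95. The shortest of the 8, on 2R from 3424061 to 3426652, scored at most 11.39 over its 2592 bp.

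**Figure D5:**
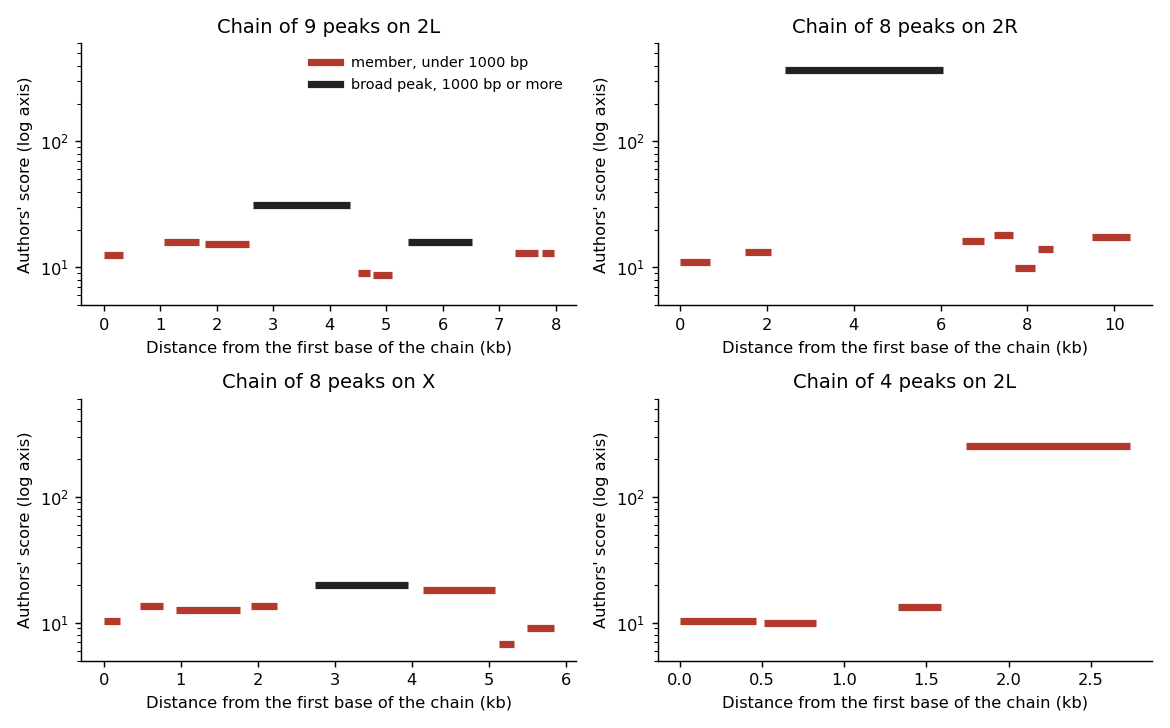
Peaks of the chains with the most peaks and of the chain with the highest-scoring member, drawn to scale as bars from first to last base in kb from the start of the chain (horizontal axis) at their authors' score on a log axis (vertical). On 2R a broad peak of score 370.79 stands over 7 members that score at most 18.21, on 2L and X the highest peaks score 31.04 and 19.77, and in the chain of 4 on 2L the last member scores 250.30.

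High scores among members were rare. The highest, 250.30, was that of a peak of 996 bp, just under the width limit, which ran from 8416243 to 8417238 on 2L. It closed a chain of 4 whose other members scored 10.23, 9.85 and 13.43. The next, 87.32, was likewise 996 bp wide, on 2R from 2492842 to 2493837, and also closed its chain. A member of 848 bp on 3L from 1861416 to 1862263 scored 67.33, one of 495 bp on 2R from 19865888 to 19866382 scored 61.27, and one of 857 bp on 3R from 16118050 to 16118906 scored 40.79. Of these 5, only the one on 3L shared its chain with a broad peak, which scored 18.54. At the other end, the lowest score, 6.24, was shared by a 201 bp member on 3L from 6488866 to 6489066 and a 357 bp member on X from 19625872 to 19626228. Of the 5 lowest members 4 were on X, the large arm whose isolated narrow peaks also had the lowest median score. The other 3 there scored 6.50 and started at 6184650, 19542406 and 19636194.

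Several chains lay close to one another in a few places. Between neighbouring chains of an arm the median distance was 390 kb (quartiles 110 and 805 kb, n = 148), and 10 of these distances were under 5000 bp. The closest chains were both on 3R, where a chain of 5 began 1295 bp after the 7-peak chain that ends at 23111418. Peaks outside a chain were nearer: the nearest was a median of 2809 bp away (quartiles 1666 and 6796 bp, n = 153), against 4179 bp from an isolated narrow peak to its nearest peak (1933 and 10922 bp, n = 2234). Both distances start from 1000 bp by the joining rule, and both sets were chosen from the same peak positions. Whether they differ beyond the local density of peaks was not tested. Within 5000 bp of the chain there was a further peak for 96 of 153 chains, 62.7%, and for 1228 of 2234 isolated narrow peaks, 55.0%.

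In stretches of 100 kb laid from base 1 of each arm, 105 stretches held 1 chain, 15 held 2 and 6 held 3, by the centre of the chain. Stretches without a chain were not counted, so these numbers are not shares of all stretches. The stretches with 3 chains were dense in peaks, with 17 to 36 peaks in all. Their chains alone held 12 to 17 peaks per stretch, so high counts follow in part from the choice of these stretches. The whole of 3R, the arm with the most peaks, had 1424 over 27.8 Mb. A 3R stretch from 12000001 held 25 peaks and 1 chain. Whether chains gather beyond the density of peaks was not tested. Of those with 3, a pair lay side by side on X from 19500001 to 19700000. Its first stretch held 15 members with a median score of 10.07, and its second 12 members with a median of 9.63. Together these 6 chains included 3 of the 5 lowest members, and 4 of them had no broad peak. A stretch on 3R from 21800001 to 21900000 held 13 members with a median score of 12.8 and none above 20.13, in chains from 21854917 to 21858883, from 21860183 to 21863229 and from 21865197 to 21871439. The first and last of these contained broad peaks of 292.67 and 360.38, and the middle one had no peak above 17.77. The 3L stretch from 3100001 to 3200000 held 13 members with a median of 13.7 and no broad peak. The others were on 2R from 3300001 to 3400000, with 12 members of median 12.8, and on 3R from 13500001 to 13600000, with 9 members of median 11.55. Broad peaks in these stretches differed widely: the highest peak scored 81.15 in the first X stretch and 22.3 in the second, 360.38 in the 3R stretch from 21800001, 44.56 in the 2R stretch and 23.6 in the other 3R stretch.

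At the limits of the rule, the peaks just inside and just outside were as follows. The 2 longest gaps inside chains were 996 and 993 bp, and the 2 shortest gaps that ended a chain were 1010 and 1043 bp, values that the joining rule itself separates. The 329 narrow peaks in chains of 4 had a median score of 11.88, and the 578 in chains of 3 one of 11.77. The widest members measured 996 bp and the narrowest broad peak of the chains 1004 bp. Members of 900 to under 1000 bp had a median score of 18.54 (n = 29), and broad peaks of the chains under 1100 bp one of 24.27 (n = 24). Member medians also rose below the limit, from 15.44 at 600 to under 800 bp to 18.11 at 800 to under 1000 bp. Whether scores step up at the limit beyond this growth with width was not tested.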

How the data were processed

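The series holds 2 ChIP and 2 input libraries. Per the submitters' processing notes, CASAVA 1.7.0.2 and 1.7.0.3, BWA, MACS2 and the build BDGP5 were used; per the file headers, peaks were called with MACS in FlyBase Release 5. The authors deposited a score per peak whose scale is not stated, and its first and last base (bp, counted from 1). The peak threshold, filters, the libraries that entered the call and any pooling of replicates were not given in the sources used here. Depth per library is unknown.

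Peaks on the arms were sorted by start and joined across gaps under 1000 bp; no peaks overlapped. Counts, quartiles, 95% Wilson intervals and Spearman's rho were computed with Python 3.11.15, numpy 2.4.6, pandas 2.3.3 and scipy 1.17.1, and figures drawn with matplotlib 3.10.9. The joining was tested on simulated data with planted chains. The regions, lists and rules were chosen with earlier results of these data known. Named regions are the 10 chains with the most peaks (ties by span; the 1 chain that this left out of those with 7 peaks was added after its values were seen), the longest and shortest chain, the 5 highest and 5 lowest members, and the 100 kb stretches with the most chains (6 tied, all given). Alternatives changed the gap, chain size, width limit, score threshold and the use of broad peaks. Sequences and genes of Release 5 were not analysed here.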

Additional observations from a re-analysis of the deposited data

Results flagged for a closer look

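Joined in the same way, peaks outside the major arms also formed chains, which no comparison above uses. On the mitochondrial genome there was 1 chain, from 13 to 14991, in which 20 of the 22 peaks of that sequence followed each other; all 20 were under 1000 bp wide and scored between 11.21 and 111.87, with a median of 34.0. On the unplaced scaffold U there was 1 chain of 15 peaks from 5288434 to 5305800, with 9 narrow peaks that scored between 14.66 and 113.89 (median 20.13) and 6 broad ones of which the highest scored 326.82. Both held more peaks than any chain on the arms, where 9 was the most. On Uextra, with 140 peaks, and on the heterochromatic scaffolds, with 10, there were 0 such chains. These sequences were picked for lying outside the rule, and the list has no value per library that could set them against the input DNA.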

How the results depend on the processing

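The number of members and of chains followed the rule. A joining gap of 500 bp gave 238 members in 61 chains and one of 2000 bp gave 1197 in 271. Chains of at least 5 peaks left 291 members in 61 chains, chains of at least 3 gave 1198 in 369, and the 50% of arm peaks with the highest score gave 71 in 22. A width limit of 500 bp gave 426 in 149, and removing broad peaks before joining gave 447 in 102. The median score of members moved to 10.8 under the 500 bp limit and to 15.8 in the top 50%, both by construction, and stayed between 11.7 and 11.9 otherwise. Its difference from isolated narrow peaks ranged from -0.09 without broad peaks to 0.39 in the top 50%. The share of chains with the highest peak at an end was 60.7% with the 500 bp gap and 34.4% for chains of at least 5 peaks, and from 42.4% to 56.9% otherwise. Ends make up 50% of the places in chains of 4 peaks, 40% in chains of 5 and 33.3% in chains of 6. Settings that change the size of chains can therefore shift this share by construction. The median gap was 159 bp and 437.5 bp with joining gaps of 500 and 2000 bp, which bound it, and 229 to 265.5 bp otherwise. The share of members on 2L over that on X, 2R, 3L and 3R, 0.50 as reported, was 0.336 with the 500 bp gap, 0.735 with the 2000 bp gap, 0.798 with chains of at least 3 peaks, and 0.484 to 0.508 under the other 5 alternatives, which include removing a stretch of 2L with 41 peaks; this ratio and its alternatives were chosen after seeing the data. Of 50 values under alternatives, 31 stayed within 1.5 times the count or within the 95% binomial interval of the reported value. Some of the 31 could hardly move: the 500 bp width limit leaves the joining unchanged, so the median gap stayed at 251.5 bp. No paired analysis was possible because each peak has 1 score for the whole series; for that reason no replicate could be left out either.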
